A study of Mus musculus with 6 samples.

Results

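The liver transcripts of 10 mouse genes that break purines down, carry urate or send purine bases back to nucleotides were compared between high-fat diet (HFD) livers with and without allantoin in the drinking water. The genes were Nt5e, Ada, Pnp, Gda, Xdh, Uox, Urah, Urad, Hprt and Slc2a9, chosen for their roles in the pathway and found by their GENCODE M21 symbols. They are 10 of the 54532 genes with an Ensembl identifier in the deposited count table, and all 10 passed the filter on low counts that left 12795 genes for testing.

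All 6 libraries came from livers of male wild-type (WT) C57BL/6J mice that entered the diet at 8 weeks of age. Every mouse received HFD for 4 weeks and then for another 4 weeks. The HFD group (n = 3, replicates 1 to 3) had no supplement, and the HFD+allantoin group (n = 3, replicates 4 to 6) drank allantoin during the last 4 weeks. The labels name 0.06 and 0.3 mg/mL without saying which applies to a library, and the study describes the sequenced group as its high-dose arm, 0.3 mg/mL. No chow liver and no lower-dose liver was analysed here, so every difference is one between mice on HFD. The labels do not state that each library is a separate mouse, and p-values measure the spread between these libraries.

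Purines are broken down in steps that converge on urate. AMP and other nucleotides lose their phosphate, adenosine is deaminated to inosine, and nucleosides are split to free bases. Guanine and hypoxanthine reach xanthine, and xanthine oxidoreductase makes urate. In most mammals, the mouse included, uricase and a pair of further liver enzymes turn urate into allantoin, the compound these mice drank, whereas humans and other apes lost uricase and end at urate. Allantoin is the end product in the mouse, since mammals lack the allantoinase that would break it down. A salvage enzyme runs the other way and returns hypoxanthine and guanine to nucleotides.

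Total counts were 11326372 to 12643458 per HFD library and 11478950 to 14601457 per HFD+allantoin library. The mitochondrial chromosome took 17.9 to 36.5% of counts in HFD and 6.92 to 11.4% in HFD+allantoin, and the 10 most abundant genes took 27.0 to 43.0% and 18.5 to 23.4%, so library composition moved with the groups. TMM factors were 0.756 to 0.951 in HFD and 1.12 to 1.19 in HFD+allantoin. With these factors the median log2 fold change of all tested genes was -0.03, against 0.38 when libraries were scaled by their totals alone. Levels below are CPM, counts per library scaled to a common total by library size and TMM factor. Fold changes are HFD+allantoin over HFD from edgeR's quasi-likelihood test, with p-values adjusted by the Benjamini-Hochberg method over the 12795 genes and called under 0.05.

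Of the 10 genes, 4 were called higher with allantoin and 0 lower. Across all genes tested, 24.3% were called, with 11.3% higher and 13% lower. The 4 were Xdh, Urad, Gda and Slc2a9, each between 1.71- and 1.94-fold higher. They act at different places, at guanine deamination, urate production, the last step to allantoin and urate transport. Of the other 6, Uox, Nt5e and Hprt had unadjusted p-values of 0.0327, 0.0475 and 0.0452 and adjusted ones of 0.0956, 0.124 and 0.120. The log2 fold change was above 0 for 9 of the 10, with a median of 0.65, beside 6170 of the 12795 tested genes above 0. Groups did not overlap for 6 genes, 5 higher and 1 lower, where 22.4% of all genes were separated upward and 21.9% downward. Of raw library totals, without TMM scaling, the 10 genes together held 0.0786 to 0.145% in HFD and 0.202 to 0.209% in HFD+allantoin. Most of these counts came from Uox, which was not called. With such totals as the only scaling, the median log2 fold change of all tested genes was itself 0.38.

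**Figure D1:**
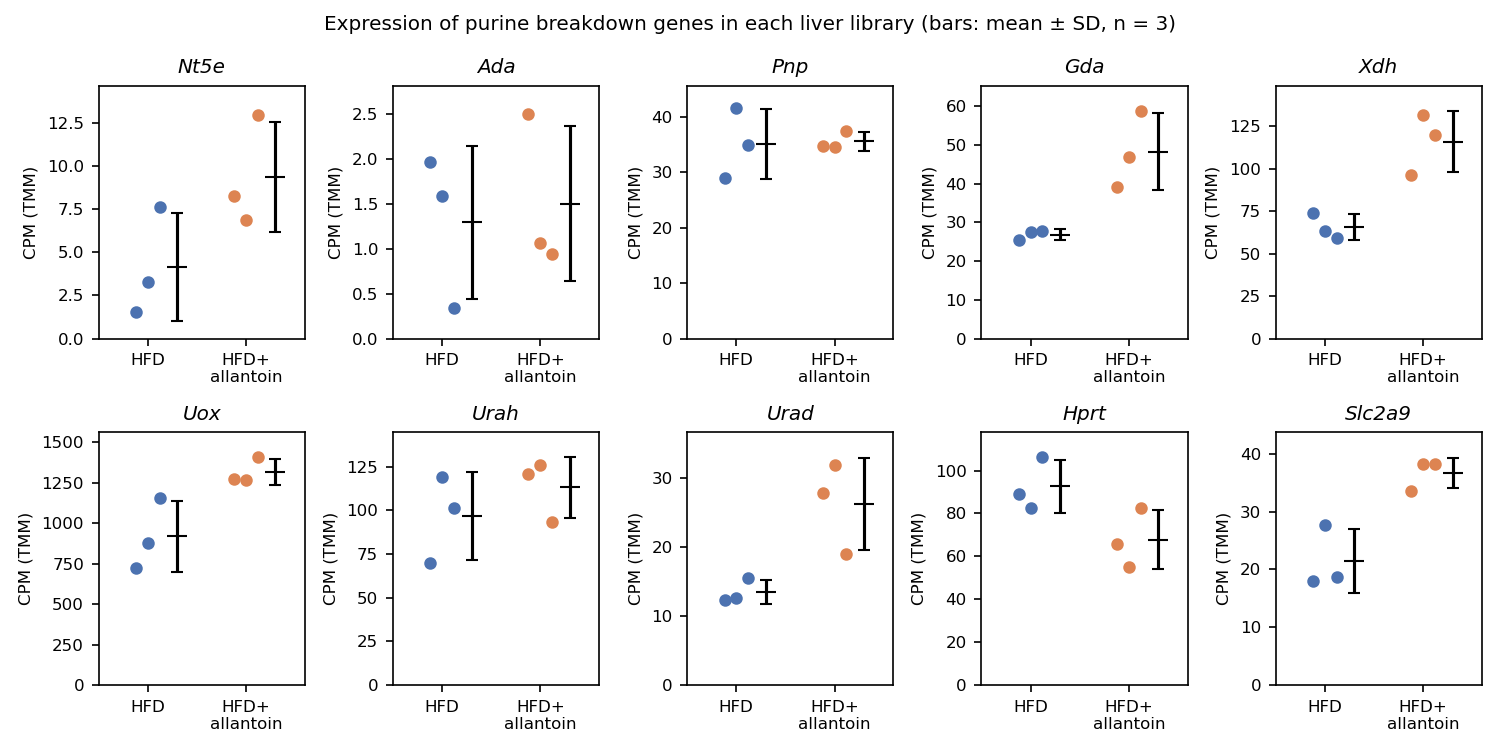
CPM after TMM scaling (y axis, from 0, a separate scale per gene) in each library of the HFD and HFD+allantoin groups for the 10 genes. Points are libraries in replicate order and bars are mean ± SD of 3. The groups are apart for Gda, Xdh, Uox, Urad and Slc2a9, with HFD+allantoin above, and for Hprt, with HFD above, and they overlap for Nt5e, Ada, Pnp and Urah.

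The upstream sequences of the genes that moved, and of Uox beside Urad, show what the start regions of the allantoin and urate genes share and do not share. Sequences are from RefSeq on GRCm38.p6 and cover up to 250 bases before the annotated start, cut where an exon is annotated. RefSeq entries matched 9 of the 10 genes, and Xdh had none. Capitals mark matches to 11 motifs searched on both strands. In Slc2a9, at chr5:38483386-38483635 on the minus strand, they mark TGACCT, the reverse complement of the nuclear receptor motif AGGTCA, at -81 and -56. In Gda, at chr19:21472673-21472911 on the minus strand, they mark TTATGCAA at -234, a match to the C/EBP motif TTGCNNAA on the other strand. They also mark ATTGG at -17, the reverse complement of the CCAAT box. In Uox, at chr3:146596899-146597076 on the plus strand, they mark TTCAGCAA at -171, again a match to TTGCNNAA on the other strand. Urad, at chr5:147322441-147322690 on the minus strand, held none of the 11. The windows of Slc2a9, Gda and Uox lie inside the longer gene spans given by GENCODE.
Slc2a9: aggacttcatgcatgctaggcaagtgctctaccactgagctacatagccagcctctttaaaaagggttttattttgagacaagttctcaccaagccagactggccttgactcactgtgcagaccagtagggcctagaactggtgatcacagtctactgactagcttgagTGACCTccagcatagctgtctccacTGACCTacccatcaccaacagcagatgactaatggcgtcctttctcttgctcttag
Gda: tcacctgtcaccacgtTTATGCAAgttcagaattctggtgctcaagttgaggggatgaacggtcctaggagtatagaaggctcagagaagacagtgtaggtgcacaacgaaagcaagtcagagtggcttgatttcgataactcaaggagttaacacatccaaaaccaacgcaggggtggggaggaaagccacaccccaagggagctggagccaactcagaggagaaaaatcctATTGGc
Uox: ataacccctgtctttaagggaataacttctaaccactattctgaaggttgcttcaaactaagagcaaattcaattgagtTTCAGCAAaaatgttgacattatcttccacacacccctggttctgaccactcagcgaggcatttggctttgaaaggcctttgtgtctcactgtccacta
Urad: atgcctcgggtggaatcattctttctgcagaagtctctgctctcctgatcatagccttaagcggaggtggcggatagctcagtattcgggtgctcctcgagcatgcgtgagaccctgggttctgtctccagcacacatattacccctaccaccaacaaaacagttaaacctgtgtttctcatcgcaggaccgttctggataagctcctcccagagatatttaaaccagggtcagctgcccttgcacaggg

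No motif was shared by the 3 windows of the genes called higher. Among 32851 RefSeq promoters, AGGTCA occurred in 14% of the 250-base windows, TTGCNNAA in 9.56% and CCAAT in 33.8%, so such matches are frequent. Pnp and Ada, which were not called, had such matches too. TTGCNNAA was found at -132 in Pnp, and CCAAT at -81 in Pnp and at -167 in Ada. A direct repeat of AGGTCA with a single spacer base (DR1), found in 0.0335% of promoters and counted also under AGGTCA, occurred in none of the 9 genes. The other 7 motifs were the HNF1 letters GTTAAT, the TATA box TATAAA, the E-box CACGTG, the GC box GGGCGG, the FOXA letters TGTTTAC, the HNF4 letters CAAAGTCCA and the antioxidant element TGACNNNGC. Of these, the GC box, present in 32.7% of promoters, was found upstream of Ada, Urah, Nt5e, Pnp and Hprt, and none of the others was found in any of the 9. A match to such letters is a description of the sequence and not a bound site.

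None of the genes of the first steps was called. Nt5e (chr9:88327197-88372092, plus strand, ENSMUSG00000032420) encodes CD73, the surface enzyme that releases adenosine from extracellular AMP. Its levels were 1.53, 3.26 and 7.61 CPM in HFD replicates 1 to 3 and 8.28, 6.86 and 13.0 CPM in HFD+allantoin replicates 4 to 6. HFD replicate 3 lay above HFD+allantoin replicate 5, so the groups overlapped, and the HFD libraries ranged from 14 to 91 reads among themselves. The log2 fold change was 1.16 (95% interval 0.02 to 2.30, adjusted p = 0.124). It was the largest estimate among the 10 genes and, after Ada, the least precise. Without HFD replicate 3 it was 1.96 with an adjusted p of 0.0107, and with no filter on low counts the adjusted p was 0.00240. It was 0.77 (adjusted p = 0.234) without HFD replicate 1 and 0.86 (adjusted p = 0.342) without HFD+allantoin replicate 6.

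Ada (chr2:163726584-163750239, minus strand, ENSMUSG00000017697), adenosine deaminase, turns adenosine into inosine. Only 18, 16 and 4 reads were counted in HFD and 34, 18 and 14 in HFD+allantoin. These are 1.97, 1.58 and 0.334 CPM against 2.49, 1.06 and 0.945 CPM, with overlapping groups. The log2 fold change was 0.23 (adjusted p = 0.832). Its interval, -1.28 to 1.74, was the widest of the 10 and left the direction of any difference undetermined. The sign turned to -0.24 without HFD replicate 3 and to -0.33 without HFD+allantoin replicate 4.

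Pnp (chr14:50931082-50965237, plus strand, ENSMUSG00000115338), purine nucleoside phosphorylase, splits inosine and guanosine to hypoxanthine and guanine. It was 28.9, 41.6 and 35.0 CPM in HFD and 34.7, 34.6 and 37.5 CPM in HFD+allantoin, with the 3 allantoin libraries inside the HFD range. The log2 fold change was 0.02 with an interval of -0.38 to 0.41 (adjusted p = 0.956), the narrowest interval of the 10. Its main transcript is 97.2% identical to that of the neighbouring gene Pnp2 over 1084 bases, and Pnp2 had 30 counts over all libraries. How the counting divided reads between the pair is not known. Pnp also shares 718 exon bases with Gm49342 on the same strand, a gene listed at 0 in every library.

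Guanine deaminase and xanthine oxidoreductase, which lie side by side in the route from guanine to urate, were both higher. Gda (chr19:21391307-21473445, minus strand, ENSMUSG00000058624) converts guanine to xanthine. It was 25.3, 27.5 and 27.8 CPM in HFD and 39.1, 46.9 and 58.7 CPM in HFD+allantoin. Every allantoin library lay above every HFD library, and the HFD values were close together while the allantoin values spread. The means were 26.8 ± 1.32 and 48.2 ± 9.89 CPM (SD, n = 3), a 1.80-fold difference (log2 0.84, SE 0.18, edgeR adjusted p = 0.0130). Leaving out HFD+allantoin replicate 5 or 6 ended the call, with log2 fold changes of 0.87 and 0.68 and adjusted p-values of 0.0540 and 0.0541. With the trend of fold change on transcript length and GC content removed, the log2 fold change of Gda was 0.56 (edgeR adjusted p = 0.0377).

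Xdh (chr17:73883895-73950196, minus strand, ENSMUSG00000024066) encodes xanthine oxidoreductase, the molybdenum enzyme that oxidizes hypoxanthine to xanthine and xanthine to urate and the target of allopurinol. Its levels were 74.0, 63.5 and 58.9 CPM in HFD and 96.2, 131 and 120 CPM in HFD+allantoin. The lowest allantoin library, replicate 4, still exceeded the highest HFD library, replicate 1. The mean rose from 65.5 ± 7.73 to 116 ± 18.0 CPM (SD, n = 3), which is 1.77-fold (log2 0.82, SE 0.18, edgeR adjusted p = 0.0130). The adjusted p was 0.0697 without HFD+allantoin replicate 5 and 0.0513 without replicate 6, at log2 fold changes of 0.73 and 0.80.

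The enzymes that turn urate into allantoin did not pass the test together. Uox, Urah and Urad catalyse 3 consecutive reactions, and only Urad, the last, was called. Uox (chr3:146570426-146632305, plus strand, ENSMUSG00000028186) encodes urate oxidase, or uricase, a peroxisomal enzyme that oxidizes urate to 5-hydroxyisourate. It was 722, 878 and 1156 CPM in HFD and 1272, 1267 and 1410 CPM in HFD+allantoin. The groups did not overlap, and the gap between the nearest libraries was smaller than the spread within HFD. The means were 919 ± 220 and 1316 ± 81.0 CPM (SD, n = 3), 1.43-fold apart (log2 0.52, interval 0.05 to 0.98), and the adjusted p of 0.0956 missed the threshold.

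Uox passed under other settings, with an adjusted p of 0.0472 in DESeq2 (log2 0.52), 0.0269 without HFD replicate 3 (log2 0.72) and 0.0329 with library totals as the only scaling (log2 0.91). Without HFD replicate 1 it was 0.37 with an adjusted p of 0.181. With library totals only, the median gene also stood at 0.38, and Uox lay 0.52 above it, against 0.55 above the median with TMM. The opposite-strand gene Dnase2b overlaps the Uox span without sharing exon bases. Its own levels were 26.0 and 25.2 CPM in HFD and HFD+allantoin (log2 -0.05, adjusted p = 0.907).

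Urah (chr7:140835018-140837966, plus strand, ENSMUSG00000025481) encodes the hydrolase that opens 5-hydroxyisourate. It was 69.9, 119 and 101 CPM in HFD and 121, 126 and 93.3 CPM in HFD+allantoin. The groups overlapped, since HFD+allantoin replicate 6 lay below HFD replicates 2 and 3. The log2 fold change was 0.23 with an interval of -0.28 to 0.73 (adjusted p = 0.489). With the trend of fold change on transcript length and GC content removed it was 0.67 with an adjusted p of 0.0495, and without HFD replicate 1 it was 0.04 with an adjusted p of 0.905. An antisense gene, C330022C24Rik, shares 177 exon bases with Urah and had 0 to 31 counts per library, and whether the counting used strand is not given in the sources used here.

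Urad (chr5:147314984-147322440, minus strand, ENSMUSG00000075543) encodes the decarboxylase that completes the route to allantoin. Its levels were 12.3, 12.6 and 15.5 CPM in HFD and 27.8, 31.9 and 19.0 CPM in HFD+allantoin. All allantoin libraries were higher than all HFD libraries, with HFD+allantoin replicate 6 closest to the HFD range. The mean went from 13.5 ± 1.73 to 26.2 ± 6.60 CPM (SD, n = 3), a 1.94-fold rise (log2 0.96, SE 0.22, edgeR adjusted p = 0.0168). It was the largest of the 4 called differences. The call was lost without HFD+allantoin replicate 4 (log2 0.92, adjusted p = 0.0663) and without replicate 5 (log2 0.80, adjusted p = 0.0818). With the length and GC trend removed, the log2 fold change of Urad was 1.37 (edgeR adjusted p = 0.00657).

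Hprt (chrX:52988137-53021659, plus strand, ENSMUSG00000025630), the salvage enzyme that returns hypoxanthine and guanine to IMP and GMP, was the only one of the 10 with a fold change below 0. It was 88.9, 82.8 and 106 CPM in HFD and 65.9, 55.0 and 82.4 CPM in HFD+allantoin. The highest allantoin library, at 82.4 CPM, sat just under the lowest HFD library, at 82.8 CPM. The log2 fold change was -0.45 (interval -0.89 to -0.01), and the adjusted p of 0.120 missed the threshold. With library totals as the only scaling it was -0.05, which lay -0.43 from the median of all genes, compared with -0.42 under TMM.

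Slc2a9 (chr5:38349273-38503143, minus strand, ENSMUSG00000005107) encodes GLUT9, the transporter that carries urate across the hepatocyte membrane to uricase. Its levels were 17.9, 27.8 and 18.6 CPM in HFD and 33.6, 38.2 and 38.1 CPM in HFD+allantoin. The allantoin libraries were close together and all above HFD replicate 2, the highest of its group. The means were 21.4 ± 5.48 and 36.6 ± 2.64 CPM (SD, n = 3), 1.71-fold apart (log2 0.77, SE 0.20, edgeR adjusted p = 0.0248). It was lost in 4 of the 6 refits that left out a library, namely without HFD replicate 1 (log2 0.66, adjusted p = 0.0553) and without each allantoin library in turn, with log2 fold changes of 0.84, 0.75 and 0.75 and adjusted p-values of 0.0639, 0.0926 and 0.0840 for replicates 4, 5 and 6.

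**Figure D2:**
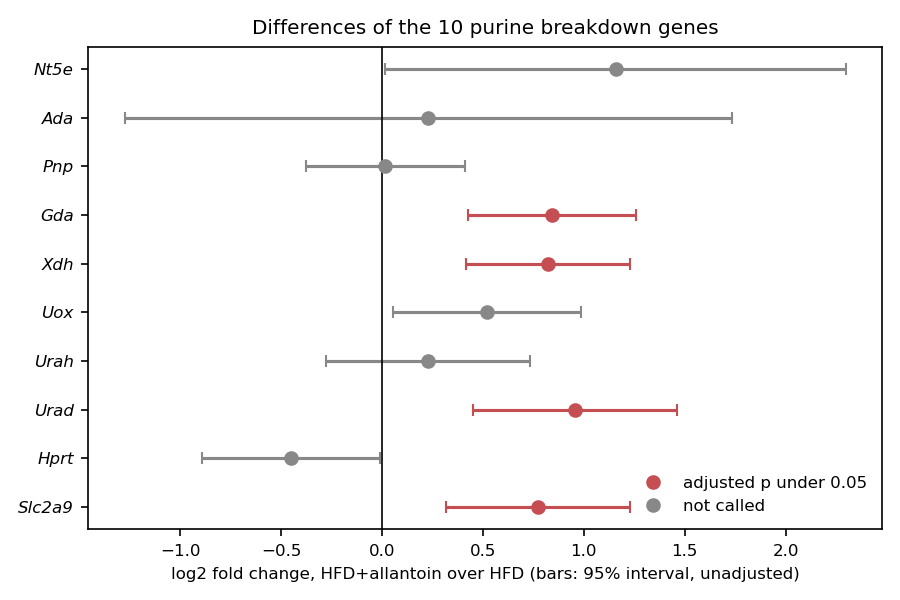
Log2 fold change, HFD+allantoin over HFD (x axis), of the 10 genes with unadjusted 95% intervals from edgeR. Red marks an adjusted p under 0.05. The 4 red genes lie between 0.77 and 0.96 with intervals of similar width, while Nt5e at 1.16 and Ada at 0.23 have the widest intervals.

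**Figure D3:**
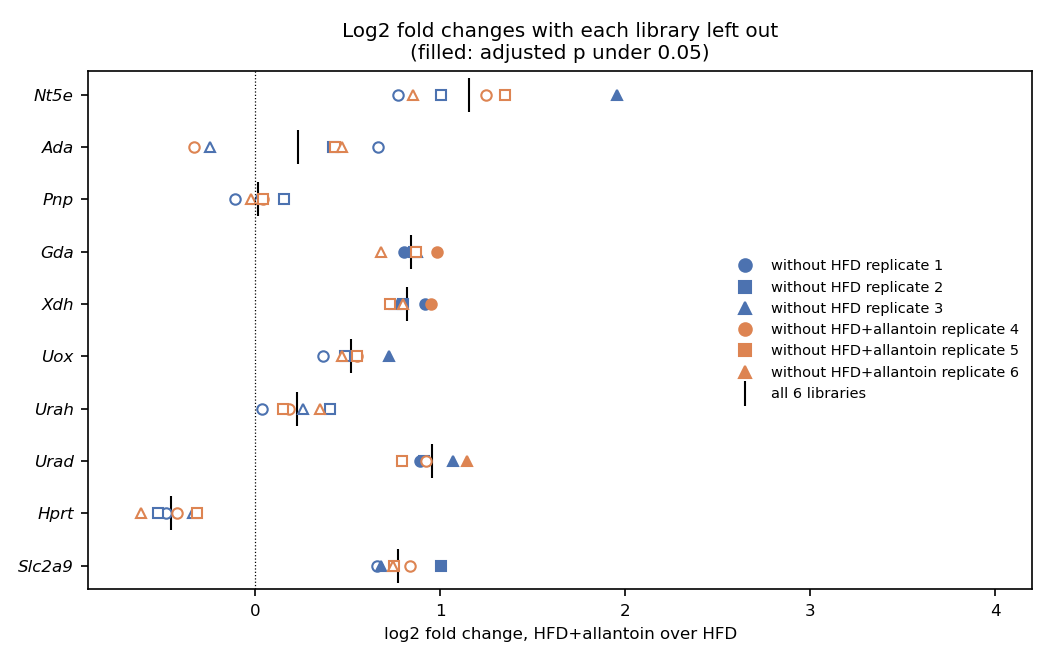
Log2 fold change of each gene (x axis) after leaving out 1 library, with the value from all 6 libraries as a vertical tick and filled symbols for an adjusted p under 0.05. Xdh, Gda, Urad and Slc2a9 stay above 0 in every refit, between 0.66 and 1.15, but all 4 symbols are open without HFD+allantoin replicate 5, and Ada and Pnp cross 0.

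Levels can be compared between genes only per length, here as CPM per kilobase of the main GENCODE transcript. The mean levels had the same order in both groups. Uox led with 336 in HFD and 481 in HFD+allantoin, followed by Urah with 109 and 127 and by Hprt with 71.9 and 52.6. Urad had 17.6 and 34.2 and Xdh 14.2 and 25.2. Pnp ranged from 9.83 to 14.1 in HFD and from 11.8 to 12.8 in HFD+allantoin.

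At the low end, Slc2a9 had 5.95 and 10.2 CPM per kilobase, Gda 4.95 and 8.89, Nt5e 1.03 and 2.35, and Ada 0.766 and 0.889. Uricase mRNA was thus the most abundant of the pathway per length, and the last enzyme, Urad, was well below the enzymes of both steps before it. Neighbours in this order that overlapped between libraries were Urah and Hprt, Xdh and Pnp, Slc2a9 and Gda, and Nt5e and Ada in HFD. In HFD+allantoin they were Urad and Xdh, and Slc2a9 and Gda.

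Ratios of counts within a library do not depend on the scaling between libraries, and 8 pairs of neighbouring or opposing steps were compared. A two-sided exact permutation test on 3 against 3 libraries cannot give a p below 0.10. The log2 ratio of Hprt to Xdh, salvage against oxidation, was 0.26, 0.38 and 0.85 in HFD and -0.55, -1.26 and -0.54 in HFD+allantoin. Counts of Hprt, not corrected for length, thus exceeded those of Xdh in every HFD library and fell short of them in every allantoin library. Per kilobase, Hprt lay above Xdh in every library of both groups. The means of the log2 ratio were 0.50 ± 0.31 and -0.78 ± 0.41 (SD, n = 3). The difference of -1.28 had the smallest possible p (exact permutation p = 0.1, adjusted over the 8 pairs 0.4). Every allantoin library had less Hprt and more Xdh, in CPM, than every HFD library. The separation of this ratio, and with it the p, was fixed by those levels and is not a further result.

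The log2 ratio of Urad to Urah, the last steps to allantoin, was -2.50, -3.24 and -2.71 in HFD and -2.12, -1.98 and -2.30 in HFD+allantoin. These groups did not overlap either, with means of -2.82 ± 0.38 and -2.13 ± 0.16 (SD, n = 3) and a difference of 0.68 (exact permutation p = 0.1, adjusted 0.4). The other 6 ratios overlapped between the groups. Gda to Xdh differed by 0.0092, Uox to Xdh by -0.27, Urah to Uox by -0.29, Urad to Uox by 0.39, Ada to Pnp by 0.39 and Pnp to Hprt by 0.50. Gda and Xdh, both called higher, thus kept nearly equal mean ratios, within SDs of 0.24 and 0.23.

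**Figure D4:**
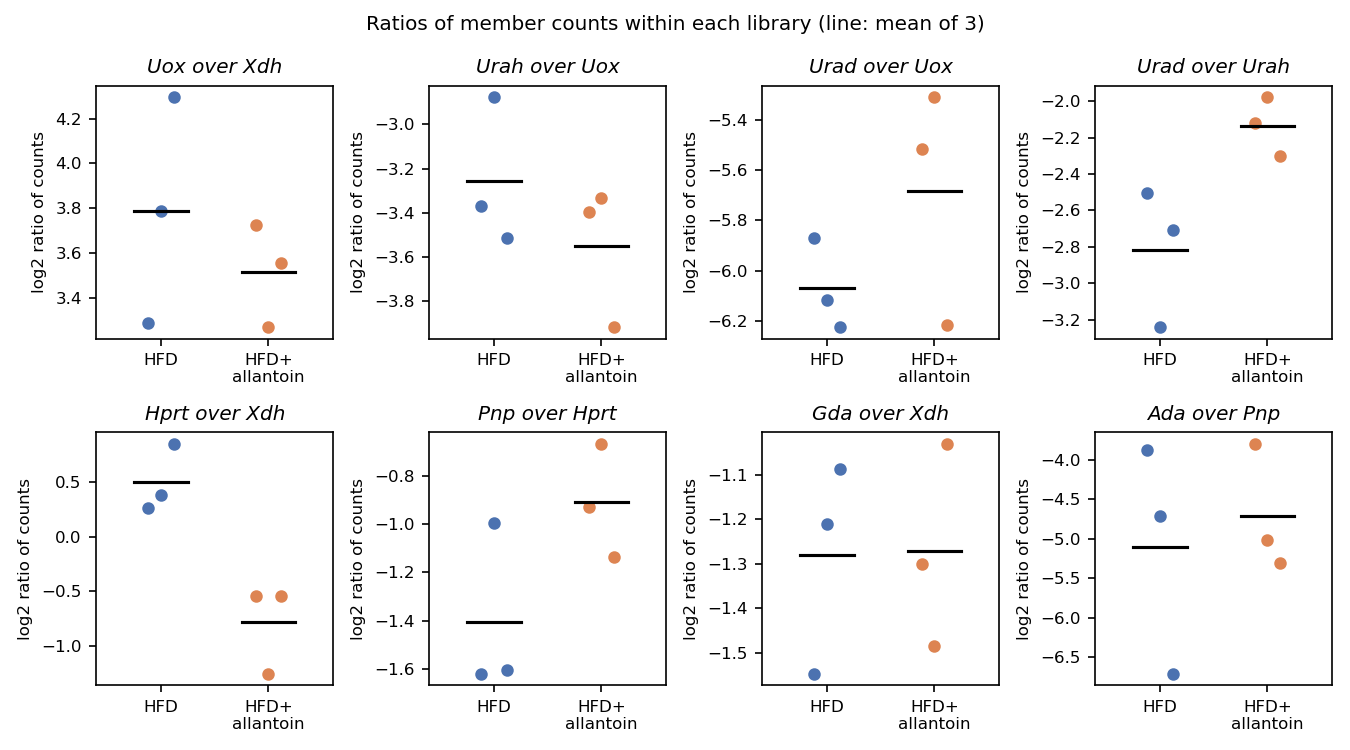
Log2 ratio of the counts of a pair of genes within each library (y axis, a separate scale per pair) for HFD and HFD+allantoin, with a line at the mean of 3. Hprt over Xdh falls from above 0 to below 0 and Urad over Urah moves up, both without overlap, and the other 6 pairs overlap. Counts are not corrected for transcript length, so the place of 0 has no meaning for relative abundance.

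A wider set of 79 purine genes gave 60 that could be tested, of which 10 were called higher, 5 lower and 45 not called, with a median log2 fold change of 0.07. The share called, 25%, was close to the 24.3% of all genes. Groups did not overlap for 17 of the 60 upward and 10 downward, beside 22.4% and 21.9% of all genes. Among the other genes of purine breakdown and the nucleotidases, 16 of 24 were tested, 3 were called higher and 1 lower, and the median was -0.17. Enpp1, which splits nucleotide triphosphates outside the cell, rose from 13.2 ± 3.12 to 28.8 ± 3.90 CPM (log2 1.12, adjusted p = 0.00857). Nt5c3, a cytosolic nucleotidase that favours pyrimidine nucleotides, rose from 13.9 to 22.1 CPM (log2 0.66, adjusted p = 0.0221). Entpd5, a nucleoside diphosphatase of the endoplasmic reticulum, rose from 185 to 287 CPM (log2 0.63, adjusted p = 0.0304). The Entpd5 call was lost in 4 of the 6 refits that left out a library, and with the length and GC trend removed the value was 0.37 with an adjusted p of 0.113.

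Entpd8, a nucleoside triphosphatase of the canalicular membrane, fell by 1.26 on the log2 scale (adjusted p = 0.0245). Its levels were 202, 91.4 and 81.8 CPM in HFD and 53.8, 56.7 and 46.8 CPM in HFD+allantoin, and HFD replicate 1 was far above the rest. Entpd1, or CD39, which makes the AMP that Nt5e uses, was 2.95 and 5.90 CPM with an adjusted p of 0.0539. Aox3, the main liver aldehyde oxidase and a relative of Xdh, was 404 ± 103 and 428 ± 64.8 CPM (adjusted p = 0.817). Allc, the gene for allantoicase, which in other animals acts on the product of allantoin breakdown, had 1 count over all 6 libraries.

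Xanthine oxidoreductase needs the molybdenum cofactor, and all 8 genes listed for making that cofactor or using it were tested, with the aldehyde oxidases counted among the breakdown genes. Suox, sulfite oxidase, was the only one called, 12.5% of the list beside 24.3% of all genes. It rose from 51.6 ± 18.1 to 120 ± 9.36 CPM (log2 1.22, adjusted p = 0.0124). The synthesis genes Mocs1, Mocs2, Mocs3 and Gphn were not called, and Mocos, which adds the sulfur that Xdh requires, was 38.4 and 44.3 CPM (log2 0.21, adjusted p = 0.391). The median of the list was 0.23.

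Purine salvage had 8 of 10 genes tested, with 1 higher and 2 lower and a median of 0.04. That made 37.5% called, beside 24.3% of all genes. Aprt, which does for adenine what Hprt does for hypoxanthine, was 40.9, 34.3 and 31.8 CPM in HFD and 17.6, 21.7 and 22.9 CPM in HFD+allantoin. All allantoin libraries were below all HFD libraries (log2 -0.78, adjusted p = 0.0152), and with the length and GC trend removed the value was -0.22 with an adjusted p of 0.404. Dguok, the mitochondrial deoxyguanosine kinase, fell from 16.4 ± 1.64 to 7.72 ± 0.567 CPM (log2 -1.08, adjusted p = 0.00591). Ak4, a mitochondrial adenylate kinase, rose from 26.3 ± 3.67 to 65.2 ± 6.67 CPM (log2 1.31, adjusted p = 0.00337). Adk, adenosine kinase, was 746 and 630 CPM (adjusted p = 0.296).

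De novo purine synthesis had 16 of 17 genes tested, with 4 higher, 0 lower and a median of 0.28. That made 25% called, near the 24.3% of all genes. The 4 called genes encode enzymes of the route to IMP. Ppat, which catalyses its committed step, rose from 11.9 ± 3.26 to 22.2 ± 0.497 CPM (log2 0.90, adjusted p = 0.0178), and Gart rose from 10.8 ± 2.47 to 18.4 ± 0.962 CPM (log2 0.78, adjusted p = 0.0277). Paics was 59.3, 88.5 and 89.6 CPM in HFD and 178, 177 and 177 CPM in HFD+allantoin (log2 1.16, adjusted p = 0.00518). Atic, which closes the purine ring, was 7.21, 12.1 and 13.0 CPM in HFD and 22.5, 22.2 and 22.8 CPM in HFD+allantoin (log2 1.06, adjusted p = 0.0130). The calls of Ppat and Gart were lost without each HFD+allantoin library in turn, and that of Atic without replicate 4 or 5.

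The Paics and Atic values were nearly equal among allantoin libraries and apart from every HFD library. The other members of the same route, Pfas and Adsl, were not called, at 9.52 and 6.94 CPM and at 14.2 and 13.1 CPM. Neither were Impdh2 and Gmps, which lead on to GMP.

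Urate and nucleoside transporters had 12 of 20 genes tested, with 1 higher, 2 lower and a median of -0.24. Pdzk1, a scaffold that anchors membrane transporters, was 5.02, 13.8 and 10.1 CPM in HFD and 25.4, 25.6 and 27.4 CPM in HFD+allantoin (log2 1.43, adjusted p = 0.0126). Slc17a3, a urate exporter of the phosphate transporter family, fell from 102 ± 28.9 to 59.0 ± 1.21 CPM (log2 -0.78, adjusted p = 0.0325). Slc22a7, or OAT2, a liver organic anion transporter, fell from 68.6 ± 17.7 to 33.0 ± 13.4 CPM (log2 -1.06, adjusted p = 0.0440). The Slc22a7 call was lost in 5 of the 6 refits that left out a library, with adjusted p-values of 0.0587 to 0.111, and the Slc17a3 call in 4 of the 6. Slc22a7 also missed the threshold with the length and GC trend removed (adjusted p = 0.0634), and with library totals as the only scaling the adjusted p was 0.189 for Slc22a7 and 0.271 for Slc17a3.

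Called transporters lay on both sides of 0 beside the higher Slc2a9. The share called, 25% of the transporters tested, was near the 24.3% of all genes. Abcg2, the main urate efflux pump, was 103 ± 10.1 and 107 ± 14.8 CPM (log2 0.05, interval -0.33 to 0.43, adjusted p = 0.849). Slc22a12, the urate reabsorption transporter of the kidney, had 1 count in all. Among the 15 called genes of the 5 lists, 11 calls were lost in at least 1 of the refits that left out a library, and those of Enpp1, Dguok, Ak4 and Paics were kept in all 6.

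**Figure D5:**
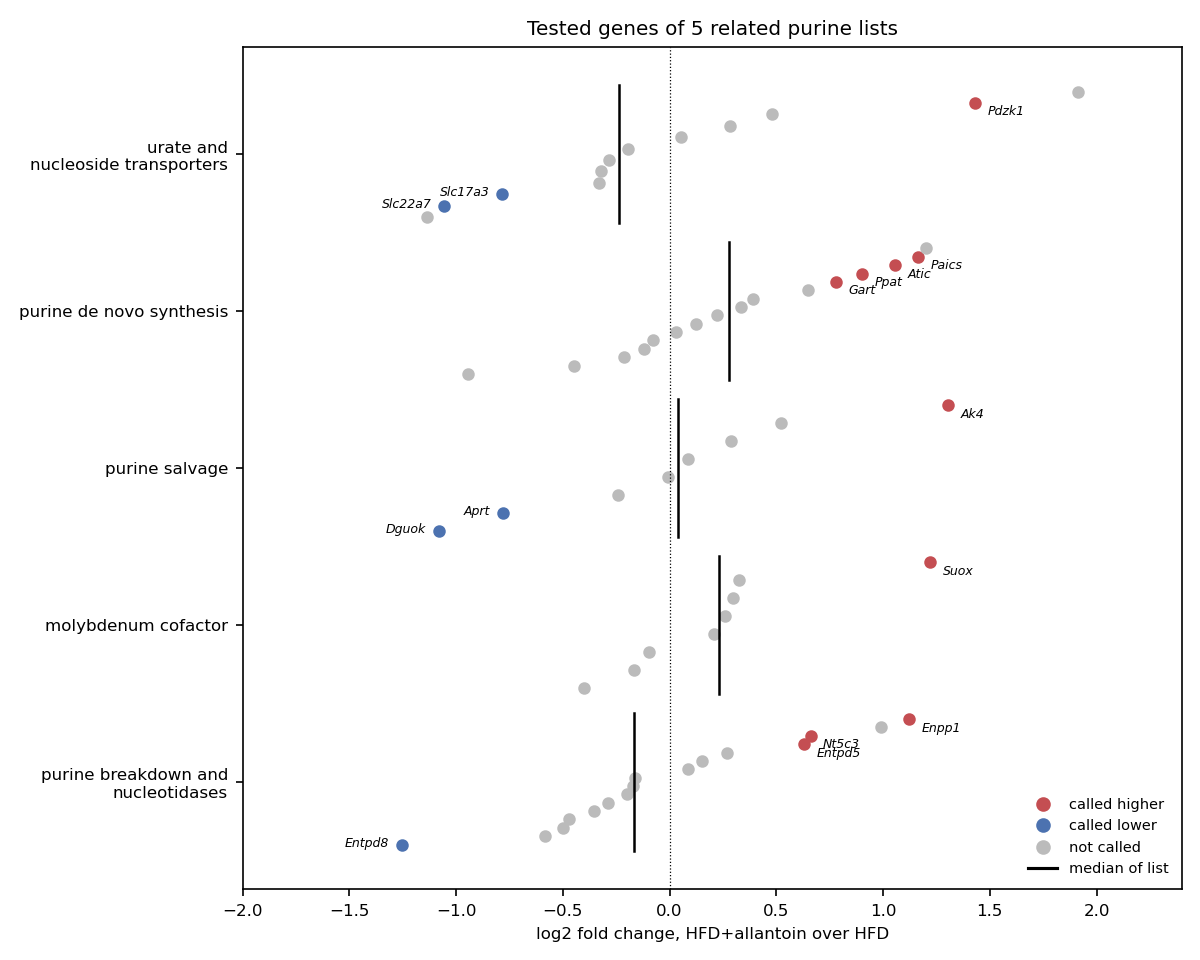
Log2 fold change, HFD+allantoin over HFD (x axis), of the 60 tested genes in 5 further purine lists, spread vertically within each list by rank, with called genes named and the median of each list as a black bar. List medians run from -0.24 for transporters to 0.28 for de novo synthesis, and called genes lie on both sides of 0 in breakdown, salvage and transport.

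Liver markers were present in every library, with 8 hepatocyte genes summing to 87324 to 89393 CPM in HFD and 70904 to 97706 CPM in HFD+allantoin. Of these, Cps1 was called higher and Ttr and Apoa1 lower. The summed levels of stellate cell and of macrophage markers did not overlap between the groups, but not every gene of these lists differed. The 8 stellate cell genes summed to 192 to 315 CPM in HFD and 420 to 483 CPM in HFD+allantoin, with 5 called higher, and the 8 macrophage genes to 139 to 321 and 341 to 382 CPM, with 3 called higher. In each of these lists 6 of the 8 log2 fold changes were above 0. The others were near 0, at -0.02 for Des, -0.005 for Ecm1, -0.01 for Cd68 and -0.06 for C1qa. The 8 endothelial genes summed to 112 to 187 and 150 to 231 CPM, with 1, Stab1, called lower. Their log2 fold changes were above 0 for 7 of the 8, with a median of 0.48. The shares called were 37.5% of hepatocyte, 62.5% of stellate cell, 37.5% of macrophage and 12.5% of endothelial genes, beside 24.3% of all genes. In bulk liver, more or fewer cells of a type and more or less RNA per cell cannot be told apart, and the part of these cells in the differences of Xdh, Gda, Urad and Slc2a9 was not tested.

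Markers of other tissues were summed as well. Kidney tubule genes, which would bring urate transporters with them, summed to 0.218 to 0.836 CPM in HFD and 0.877 to 3.90 CPM in HFD+allantoin, with 2 of 5 at 0 in every library. Intestinal genes summed to 199 to 279 and 177 to 243 CPM, with 2 of 5 at 0 throughout and Lgals4 lower with allantoin. Fabp2, at 156 to 241 CPM and not called, made up most of this sum in every library. Vil1 had 4 counts in HFD replicate 3 and 0 elsewhere. Cholangiocyte genes summed to 34.4 to 160 and 22.0 to 76.7 CPM. Sox9 was called lower among 3 tested, 33.3% beside 24.3% of all genes. The sum of 160 CPM was that of HFD replicate 3, beside 43.5 and 34.4 CPM in HFD replicates 1 and 2. Lymphocyte genes summed to 3.51 to 7.60 and 2.56 to 5.50 CPM and red blood cell genes to 332 to 1333 and 876 to 1053 CPM, with 0 called in either list.

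Adipocyte genes summed to 254 CPM in HFD replicate 2 and to between 35.7 and 82.2 CPM in the other 5 libraries. Adipoq, Plin1, Lep and Retn had 520, 498, 115 and 200 counts in HFD replicate 2 and 0 to 2 counts in each other library. Cfd was present in every library, at 35.6 to 122 CPM, and made up nearly all of the sum outside HFD replicate 2. Without HFD replicate 2 the log2 fold changes were 0.80 for Xdh, 0.86 for Gda, 0.91 for Urad and 1.0 for Slc2a9, and all 4 remained called. The same 4 genes were also called when the mitochondrial chromosome was left out of the fit, which hardly changed their log2 fold changes. These were 0.82 for Xdh, 0.84 for Gda, 0.96 for Urad and 0.77 for Slc2a9. Whether the group difference in mitochondrial share bears on these calls was not tested.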

How the data were processed

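The 6 liver RNA-seq libraries, 3 per group, were analysed. The authors filtered the reads and deposited raw read counts per gene. Libraries were made with a SMARTer mRNA kit, the submitters' processing notes name GRCm38/mm10, and the aligner and the counting tool are not given in the sources used here. Of 54961 entries, 429 carried no Ensembl identifier (0.197 to 0.306% of counts) and were left out. Of the remaining 54532, 54409 were found in GENCODE M21 on assembled chromosomes, which gave symbols, positions and transcripts.

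Counts were analysed with edgeR 4.0.16 in R 4.3.3 (TMM, filterByExpr, quasi-likelihood test, group as the only term, Benjamini-Hochberg adjustment over 12795 genes). The scripts were checked on simulated counts. Alternatives used limma 3.58.1, DESeq2 1.42.0, other scalings and filters, a stricter threshold, and refits with each library left out. Similar transcripts were searched with BLAST 2.17.0 at a minimum of 85% identity over 100 bases. The naming rule took all 10 genes, all called genes of a further purine list with 5 or fewer called, and for marker lists the summed level and counts. Genes of these lists that are named without a call (Entpd1, Aox3, Allc, the cofactor genes other than Suox, Adk, Pfas, Adsl, Impdh2, Gmps, Abcg2 and Slc22a12) and single marker genes were added for their roles after their values were seen. The genes, lists and pairs were chosen with earlier results of these data known. Depth was 11326372 to 14601457 counts per library.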

Additional observations from a re-analysis of the deposited data

How the results depend on the processing

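Of the 10 genes, 4 were called higher. The count was 0 at an adjusted p under 0.01, ran from 0 to 6 when each library was left out, and stayed at 4 or 5 under the other alternatives. It was lowest without HFD+allantoin replicate 5 (0), replicate 6 (1) and replicate 4 (2). No gene of the 10 was called lower under any setting. Over all genes, 1446 were called higher and 1666 lower. These counts were 460 and 564 without HFD+allantoin replicate 5, 596 and 700 without replicate 4, 702 and 832 without replicate 6, 443 and 573 at an adjusted p under 0.01, and 3162 and 674 with library totals as the only scaling. The called genes of the further purine lists, 10 higher and 5 lower, became 18 and 1 with library totals only and 3 and 1 at an adjusted p under 0.01, and ranged from 3 to 12 higher and from 1 to 6 lower with each library left out. They were 6 and 1 without HFD+allantoin replicate 4, 3 and 1 without replicate 5 and 6 and 2 without replicate 6, and the lower count was 3 without HFD replicate 1. The sign of Ada turned to -0.24 without HFD replicate 3 and -0.33 without HFD+allantoin replicate 4, and that of Pnp to -0.11 without HFD replicate 1 and -0.02 without HFD+allantoin replicate 6. With each library left out, Ada ranged from -0.33 to 0.66 and Pnp from -0.11 to 0.15. Ada was not tested with at least 10 counts required in every library. Adjusted p-values over all alternatives ran from 0.000490 to 0.0697 for Xdh, 0.000598 to 0.0541 for Gda, 0.000220 to 0.0818 for Urad, 0.00227 to 0.0926 for Slc2a9, 0.0269 to 0.214 for Uox, 0.0495 to 0.905 for Urah, 0.00240 to 0.342 for Nt5e, 0.0653 to 0.892 for Hprt, 0.433 to 0.854 for Ada and 0.184 to 0.969 for Pnp. The cause of these shifts was not tested. No paired analysis was possible because the groups share no replicate numbers. Ada had 4 to 34 reads per library and Nt5e 14 to 192, and their precision at greater depth was not tested.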
